A study of Mus musculus with 1528 samples.

Results

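The genes described here are 6 matrix metalloproteinases (Mmps) and 3 tissue inhibitors of metalloproteinases (Timps), taken by symbol from a table of 55421 mouse genes. All 9 were found in the table: *Mmp8*, *Mmp9*, *Mmp12*, *Mmp13*, *Mmp14*, *Mmp19*, *Timp1*, *Timp2* and *Timp3*. The measurements are Smart-seq2 libraries, full-length cDNA libraries of single sorted cells, from macrophages that were cultured from the bone marrow (BMDMs) of wild-type mice, C57BL/6 in the labels and C57BL/6J in the study's methods. All cells were grown for 7 d with CSF1. A 24-h stimulation followed, with IL4+IL13 in the reference group and with TNF added in the other (IL4+IL13+TNF), and every cytokine was used at 10 ng/ml. IL4 and IL13 drive the alternative or M2 program of macrophages, and the comparison asks how TNF changes expression in such cells. The age of the replicates is not given in the sources used here, and no unstimulated cells belong to this series of wells, so IL4+IL13 is the reference throughout. A culture dish of CSF1-grown macrophages holds no matrix-producing tissue around the cells.

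Mmps are zinc-dependent proteases that are made as inactive proenzymes and cleave collagens, elastin and other matrix proteins, as well as cytokines and receptors at the cell surface. Most are secreted, and a few, such as the product of *Mmp14*, stay anchored in the membrane. Timps bind the active site of Mmps and block it, so the balance of both families sets how much matrix is degraded. Macrophages are a main source of these proteins in wounds, atherosclerotic plaques and emphysematous lung, and *Mmp12* is known as macrophage elastase.

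The sample titles carry a number, 1 or 2, that is shared by both treatments and is called the replicate here. The study describes independent experiments, and whether the numbers also stand for separate animals is not given in the sources used here. Of 1524 wells of known replicate and treatment, 1386 cells were kept. Without TNF these were 357 cells of replicate 1 and 333 of replicate 2, and with TNF 347 and 349. The median kept cell had 472300 fragments, with 200235 in the lowest and 6122892 in the highest. Both plates of a replicate held both treatments, in separate rows of wells, so treatment and plate row cannot be told apart, nor can replicate and pair of plates. Levels below are CPM, fragment counts scaled to an equal total, computed from counts summed over the cells of a replicate and treatment. For the members and the matrix genes the total was scaled by the TMM method, which sets the typical gene to no change, and marker lists are given as plain CPM. Each of the 10 macrophage markers was detected in 5% of cells or more under both treatments, and together they stood at 15610 and 17460 CPM with IL4+IL13 and 27510 and 26900 CPM with TNF. Most of this sum was *Lyz2*, with 11700 and 13210 CPM and, under TNF, 23820 and 23010. *Aif1* and *C1qa* were also higher in both TNF samples, whereas *Fcgr1* (70.0 and 69.2, then 19.2 and 20.1 CPM), *Mertk* (14.2 and 33.7, then 6.15 and 13.2 CPM), *Cd68* (1441 and 1469, then 1210 and 1176 CPM), *Adgre1* and *Cd14* were lower in the TNF sample of each replicate. Cells are not replicates, so n = 2, p-values measure the spread between these samples only, and an exact permutation test of 2 against 2 cannot give a p below 0.333. Where samples or plates of the treatments are said below not to overlap, the share of all tested genes doing the same was not counted.

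*Mmp13*, *Mmp12*, *Mmp8* and several further Mmp genes lie next to each other on chromosome 9 (mm10), and the other members lie apart. *Mmp13* covers 7272514 to 7283331, *Mmp12* 7344381 to 7369499 and *Mmp8* 7558456 to 7568485 on chromosome 9, all on the plus strand. On the plus strand of their chromosomes also lie *Mmp9* (chromosome 2, 164940780 to 164955850), *Mmp14* (chromosome 14, 54431612 to 54445364), *Mmp19* (chromosome 10, 128790910 to 128800824), *Timp1* (chromosome X, 20870166 to 20874735) and *Timp3* (chromosome 10, 86300372 to 86349506). *Timp2* lies on the minus strand of chromosome 11, from 118301069 to 118355740. Counting did not use the strand. *Timp1* lies in an intron of *Syn1* on the other strand, and *Mmp19* overlaps the span of *Tmem198b* and *Timp3* that of *Syn3*. A fragment of the other gene that falls in exons of the member cannot be told apart from the member's own. Whether exons of both genes overlap was not examined. In the kept cells *Syn1* had 5967 fragments beside 1812 of *Timp1*, *Tmem198b* had 2371 beside 4424 of *Mmp19*, and *Syn3* had 226 beside 44 of *Timp3*.

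The promoter windows of the members that lay on the same side of the comparison on every plate are shown for their binding motifs: AP-1 and ETS factors are known regulators of Mmp genes, STAT6 acts downstream of IL4 and IL13, and NF-kB acts downstream of TNF. RefSeq (GRCm38.p6, the build of the table) gave 250 bases before the start for 7 of the 9 members, and none was given for *Mmp9* and *Mmp19*. Capitals mark matches, on either strand, to the AP-1 motif TGANTCA, the ETS motif AGGAAG or the STAT6 and NF-kB motifs. Shown 5′ to 3′ are both starts of *Mmp12* (chr9:7344147-7344396 and chr9:7347124-7347373), *Mmp13* (chr9:7272264-7272513), *Mmp14* (chr14:54431348-54431597) and, from the minus strand, *Timp2* (chr11:118355412-118355661).
Mmp12, upstream start: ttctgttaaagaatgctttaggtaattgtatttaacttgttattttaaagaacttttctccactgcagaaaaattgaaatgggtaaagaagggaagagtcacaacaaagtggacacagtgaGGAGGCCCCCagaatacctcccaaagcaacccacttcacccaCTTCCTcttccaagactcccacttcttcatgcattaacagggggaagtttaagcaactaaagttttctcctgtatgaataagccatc
Mmp12, downstream start: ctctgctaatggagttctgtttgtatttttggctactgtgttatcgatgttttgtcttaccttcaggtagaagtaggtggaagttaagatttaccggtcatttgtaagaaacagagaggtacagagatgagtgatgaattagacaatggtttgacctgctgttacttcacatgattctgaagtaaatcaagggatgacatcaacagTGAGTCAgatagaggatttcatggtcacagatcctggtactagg
Mmp13: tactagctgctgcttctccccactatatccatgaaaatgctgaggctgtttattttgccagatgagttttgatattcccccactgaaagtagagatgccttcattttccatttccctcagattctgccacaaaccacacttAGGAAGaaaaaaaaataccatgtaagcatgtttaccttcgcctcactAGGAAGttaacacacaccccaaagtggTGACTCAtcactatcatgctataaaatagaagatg
Mmp14: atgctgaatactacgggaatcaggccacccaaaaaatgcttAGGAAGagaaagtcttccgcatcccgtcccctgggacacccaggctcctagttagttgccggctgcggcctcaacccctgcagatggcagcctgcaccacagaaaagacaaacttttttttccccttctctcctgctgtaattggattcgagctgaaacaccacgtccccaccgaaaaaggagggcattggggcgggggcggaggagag
Timp2: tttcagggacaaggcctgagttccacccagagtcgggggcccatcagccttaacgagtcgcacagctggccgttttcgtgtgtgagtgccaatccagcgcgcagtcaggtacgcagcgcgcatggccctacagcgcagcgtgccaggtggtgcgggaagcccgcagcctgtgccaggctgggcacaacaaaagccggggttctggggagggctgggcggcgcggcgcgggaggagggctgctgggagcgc
An AP-1 match began 44 bases before the downstream start of *Mmp12* and 35 bases before the start of *Mmp13*, and such a match was in 6.75% of all 32851 windows of the same length. The upstream *Mmp12* window held an ETS and an NF-kB match in its place. ETS matches, present in 29.5% of all windows, were also found in *Mmp13* (2 of them) and *Mmp14*. The windows of *Mmp8*, *Timp1* and *Timp3*, which are not shown, held ETS matches as well. No letters of the 4 motifs matched in the *Timp2* window, which had a GC content of 68.0% against a median of 52.4% over all windows. STAT6 matches were in 5.85% and NF-kB matches in 7.25% of all windows, and no member window held a STAT6 match.

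With IL4+IL13 alone, *Timp2* and *Mmp12* dominated their families, and per kilobase of exon length their order was exchanged with TNF. This length, used to compare levels of different genes, was 7237 bases for *Mmp12* and 3896 for *Timp2*. With IL4+IL13, *Timp2* stood at 96.8 and 144 CPM per kb in replicate 1 and replicate 2. *Mmp12* stood at 78.8 and 70.9 CPM per kb, below *Timp2* in both replicates. In CPM not divided by length, *Mmp12* lay above *Timp2* in replicate 1 (570.5 and 377) and below it in replicate 2 (513 and 562.5). The order with IL4+IL13 therefore depends on the lengths used. Under IL4+IL13+TNF, *Mmp12* was first with 175 and 154 CPM per kb, and *Timp2* followed with 56.0 and 77.0. The other members were far lower. With IL4+IL13 they followed in the order *Mmp13*, *Timp1*, *Mmp8*, *Mmp19*, *Mmp14*, *Mmp9* and *Timp3*, in which the neighbours *Timp1* and *Mmp8* and the neighbours *Mmp14* and *Mmp9* overlapped between replicates. *Mmp13* led this group with 5.37 and 4.92 CPM per kb, and *Timp3* closed it with 0.00405 and 0.0117. With TNF, *Mmp8*, *Mmp9*, *Mmp13*, *Mmp14*, *Mmp19* and *Timp1* lay between 0.677 and 6.15 CPM per kb, each overlapping its neighbour in the order.

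Summed over the families, the 6 Mmps made 87.9 and 82.3 CPM per kb with IL4+IL13 and 191 and 167 with TNF. The 3 Timps made 100.2 and 149 CPM per kb with IL4+IL13 and 57.5 and 79.4 with TNF. The ratio of Mmp to Timp transcript was therefore 0.877 in replicate 1 and 0.553 in replicate 2 without TNF. Under TNF it was 3.32 and 2.10, and the samples of the 2 treatments did not overlap. *Mmp12* made 86.2% to 92.6% of the Mmp sum and *Timp2* 96.6% to 97.4% of the Timp sum in the 4 samples, so the ratio is essentially that of these 2 genes. The size of the ratio and the shares of cells that follow depend on the exon lengths used. In single cells, *Mmp12* exceeded *Timp2* per kilobase in 25.5% (95% exact binomial interval 21.1 to 30.3) and 15.3% (11.6 to 19.6) of the cells with IL4+IL13. With TNF this share was 41.8% (36.5 to 47.2) and 35.0% (30.0 to 40.2). These and all further intervals of shares cover the counting of cells only. Intervals of folds are 95% exact binomial intervals that take each fragment as independent. PCR copies are counted in these libraries, so the intervals of folds are too narrow even for counting error. They do not cover the spread between plates or replicates.

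**Figure D1:**
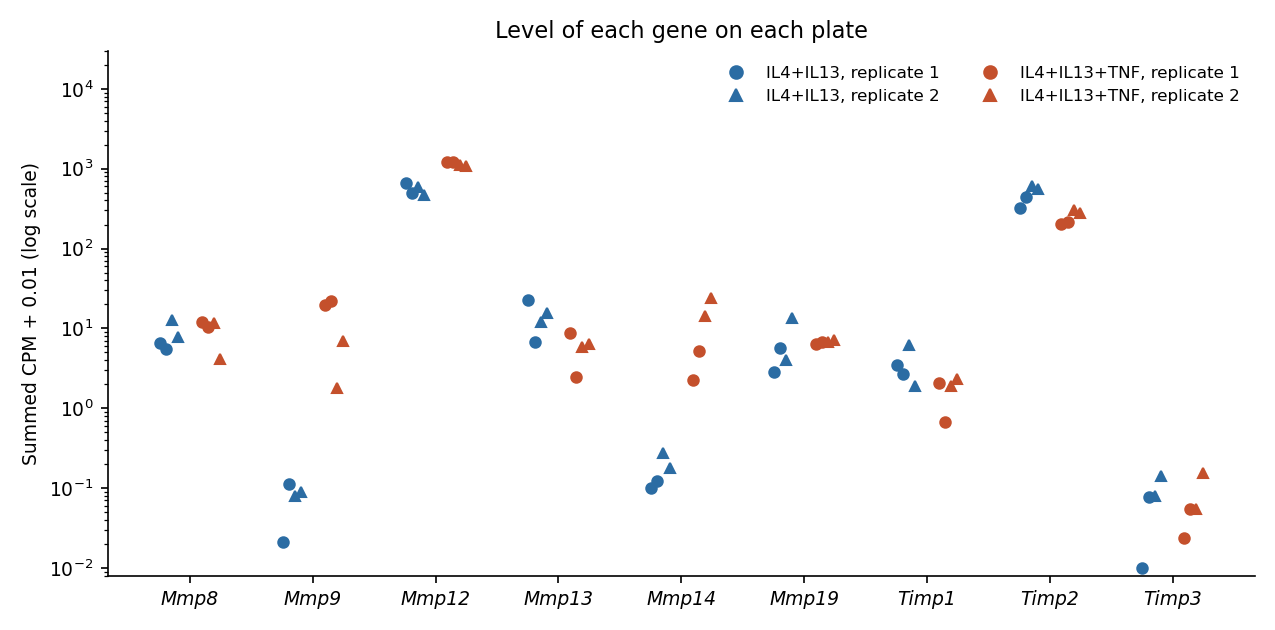
Level of each gene in CPM with 0.01 added, on a log axis, for IL4+IL13 (blue) and IL4+IL13+TNF (orange); each point is the sum over the kept cells of 1 plate, circles for replicate 1 and triangles for replicate 2. *Mmp12* and *Timp2* sit at 200.6 CPM or more on every plate and the other 7 genes at 24.1 or less. The treatments do not overlap for *Mmp9*, *Mmp12*, *Mmp14* and *Timp2*, and how many of all tested genes do the same was not counted.

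In the edgeR quasi-likelihood test with treatment as the only term, none of the 8 members tested passed an adjusted p of 0.05, where 0.00587% of the 17034 genes tested did, 5 had an unadjusted p under 0.05, as did 1380 of the 17034 genes, and DESeq2 called 4. With the replicate as a block, since the same-numbered samples of both treatments shared their plates, 4 of the 8 passed, 3 of them higher and 1 lower, against a background of 3.82% (1.94% higher and 1.88% lower). DESeq2 called 3.51% of all genes, 1.79% higher and 1.72% lower. *Timp3* was too low to be tested, and *Mmp9* entered the test only through the TNF-treated cells. The median log2 fold change was 0.30 over the 8 members and 0.01 over all tested genes in the fit with the block. The background is given for scale and the members' counts are a description of these genes.

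*Mmp12*, which cleaves elastin and a wide range of matrix proteins, was the most abundant protease and had more transcript in the TNF-treated cells of both replicates. It stood at 570.5 and 513 CPM with IL4+IL13 (542 ± 40.6, SD, n = 2) and at 1268 and 1117 CPM with IL4+IL13+TNF (1192 ± 107). Both TNF samples lay above both IL4+IL13 samples, 2.22-fold (2.21 to 2.24) in replicate 1 and 2.18-fold (2.16 to 2.19) in replicate 2. In plain CPM, the interval was 1.78 to 1.82 on plate 2 and 2.43 to 2.48 on plate 3, both of replicate 1. These plates thus differed by more than their intervals. The log2 fold change was 1.14 with an SE of 0.152 and an edgeR adjusted p of 0.185, which became 0.00798 with the replicate as a block and ranged from 0.000156 to 0.9999 over 14 alternatives. On the 4 plates, the log2 ratio with 0.5 CPM added was 0.85, 1.29, 0.90 and 1.20.

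The sum hides a very uneven distribution of *Mmp12* over cells. With IL4+IL13, the median cell had 12.6 CPM in replicate 1 and 10.3 CPM in replicate 2, while the cell at the 90th percentile had 1567 and 1255 CPM. The 5% of cells with the most transcript held 52.4% and 56.2% of all *Mmp12*. With TNF the median cell had 133.5 and 74.0 CPM, so that it differed far more than the sum, and the top 5% held 43.4% and 47.5%. Cells over 100 CPM made up 36.7% and 30.0% with IL4+IL13 and 54.5% and 45.6% with TNF. The cell at the 90th percentile stood at 3750 and 3759 CPM with TNF, so both the share of cells over 100 CPM and the level at the upper end were higher in each replicate.

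**Figure D2:**
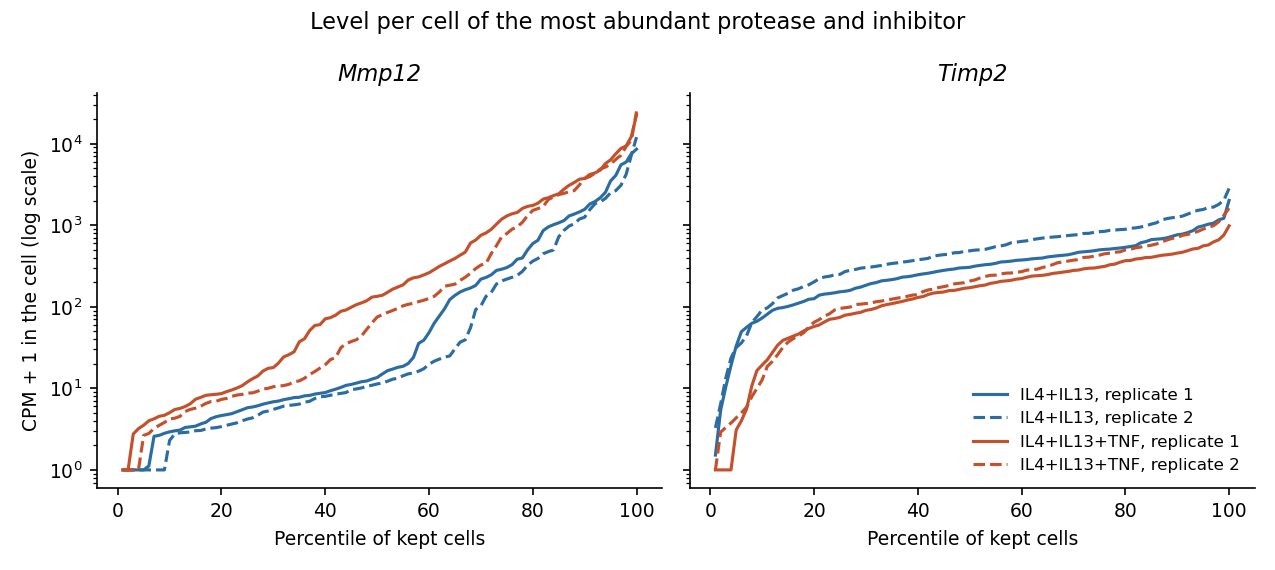
CPM with 1 added, on a log axis, against the percentile of kept cells, by replicate and treatment, for *Mmp12* (left) and *Timp2* (right); solid lines are replicate 1 and dashed lines replicate 2. *Mmp12* climbs over about 4 orders of magnitude and the TNF curves leave the low level at a smaller percentile, whereas *Timp2* is spread evenly and in each replicate the TNF curve runs below that of IL4+IL13.

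*Timp2*, which inhibits most Mmps and also takes part in activating pro-Mmp2 on *Mmp14*-bearing membranes, had less transcript with TNF. Its level was 377 and 562.5 CPM with IL4+IL13 (470 ± 131, SD, n = 2) and 218 and 299.9 CPM with TNF (259 ± 57.7), and both TNF samples lay below both IL4+IL13 samples. IL4+IL13 cells had 1.73-fold (1.71 to 1.75) more in replicate 1 and 1.88-fold (1.86 to 1.90) more in replicate 2. The log2 fold change was -0.86 with an SE of 0.273, with an edgeR adjusted p of 0.506 without and 0.0182 with the replicate as a block, over a range of 0.0182 to 0.9999 in 14 alternatives. The difference between the replicates within a treatment is as large as the SD shows, and the block removes it. Plate by plate the log2 ratio was -0.70, -1.04, -0.99 and -1.0.

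In contrast to *Mmp12*, *Timp2* was spread over nearly all cells. The median cell had 304 and 485 CPM with IL4+IL13 and 170.5 and 206 CPM with TNF, and the top 5% of cells held 15.8% to 19.6% of the transcript. Cells at the 10th percentile had 71.8 and 90.5 CPM with IL4+IL13 and 18.3 and 11.7 CPM with TNF.

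*Mmp9*, gelatinase B, was nearly silent with IL4+IL13 and present in a minority of TNF-treated cells. The kept cells held 10 and 12 fragments with IL4+IL13, or 0.0550 and 0.0712 CPM, against 3385 and 790 fragments with TNF, or 21.8 and 4.50 CPM. Both replicates were higher with TNF, 396-fold (215 to 826) in replicate 1 and 63.3-fold (36 to 123) in replicate 2, and replicate 1 had the higher level with TNF on both of its plates. The log2 fold change was 7.69 with an SE of 1.03, with an edgeR adjusted p of 0.185 without and 0.0135 with the block, and of 1.12e-22 to 0.760 over 14 alternatives. Leaving out the TNF sample of replicate 1 gave 0.0377 and leaving out that of replicate 2 gave 0.00983, fits that take the spread of the IL4+IL13 samples for the single TNF sample left. A few cells carried much of it: the top 5% of cells held 79.9% and 98.5%, and the highest cell alone 21.3% and 20.8%, in replicate 1 and replicate 2.

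*Mmp14*, the membrane-bound protease that cleaves collagen at the cell surface and activates pro-Mmp2, showed the same kind of difference with the replicates in the other order. It had 18 and 36 fragments with IL4+IL13, or 0.0990 and 0.214 CPM, and 627 and 3477 fragments with TNF, or 4.04 and 19.8 CPM. That was 40.8-fold (25.6 to 69.2) higher in replicate 1 and 92.8-fold (66.9 to 133) higher in replicate 2, and the TNF samples lay above the IL4+IL13 samples without overlap. The log2 fold change was 6.25 with an SE of 1.03 and an edgeR adjusted p of 0.220, or 0.00771 with the block, with a range of 5.04e-15 to 0.779 over 14 alternatives. Without the TNF sample of replicate 1 the adjusted p was 0.0149, and without that of replicate 2 it was 0.127 with a log2 fold change of 4.69. Its level with TNF was 2.24 and 5.17 CPM on the plates of replicate 1 and 14.5 and 24.1 CPM on those of replicate 2, where *Mmp9* stood at 19.7 and 21.8 CPM and at 1.76 and 6.99 CPM. Whether the replicates differ in these genes was not tested, since each gives 1 value a treatment.

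Among dendritic cell markers, *Ccr7* moved with TNF in the same order of replicates as *Mmp14*, from 0.112 and 0.450 CPM to 20.5 and 190 CPM. The 8 genes of that list summed to 9.92 and 14.4 CPM with IL4+IL13 and to 31.1 and 212 CPM with TNF, and 3 of the 8 were detected in 5% of cells or more under each treatment. With TNF the sum was mostly *Ccr7*. *Fscn1* went from 0.0112 and 0.0555 CPM to 1.24 and 8.62, and *Zbtb46* from 0.331 and 3.125 CPM to 1.385 and 6.55, both higher in each replicate. *Siglech* went from 0.724 and 2.07 CPM to 0 and 0.0223, and *Cd209a* from 1.34 and 1.47 CPM to 0.00616 and 0.267. *Flt3* stood at 7.36 and 6.94 CPM and, with TNF, at 7.20 and 6.99. *Xcr1* and *Clec9a* were higher with TNF in replicate 1 and lower in replicate 2. Across single cells, the rank correlation of *Mmp14* with the list had a median of -0.03 over the 8 sets of 1 plate and 1 treatment (range -0.14 to 0.07). With IL4+IL13 a plate held only 8 to 23 fragments of *Mmp14*. *Flt3* was found in 94.2% and 92.1% of cells of the 2 treatments, and *Ccr7* in 9.3% and 22.7%. A value near 0 therefore does not show that *Mmp14* and these markers are unrelated. The part of cells with such markers in the difference was not tested.

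*Mmp13*, a collagenase, was the one protease among the 6 Mmps described here with less transcript under TNF in both samples. It stood at 14.4 and 13.2 CPM with IL4+IL13 (13.8 ± 0.841, SD, n = 2) and at 5.47 and 6.26 CPM with TNF (5.86 ± 0.556), with no overlap. IL4+IL13 cells held 2.62-fold (2.43 to 2.84) more in replicate 1 and 2.10-fold (1.96 to 2.26) more in replicate 2. The log2 fold change was -1.23 with an SE of 0.251, and the edgeR adjusted p was 0.298 without and 0.05 with the block, not under the threshold, while DESeq2 gave 0.000871 and the 14 alternatives reached up to 0.9999. The top 5% of cells held 81.4% to 99.6% of *Mmp13*, and 1 cell held 34.2% in the TNF sample of replicate 2. The plate ratios on the log2 scale were -1.34, -1.27, -0.98 and -1.23. On the plates themselves the level ran from 6.68 to 22.6 CPM with IL4+IL13 and from 2.47 to 8.64 CPM with TNF, and the treatments overlapped in replicate 1, where plate 3 stood at 6.68 CPM with IL4+IL13 and plate 2 at 8.64 CPM with TNF.

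Of the 9 members, 5 were on the same side on all 4 plates: *Mmp9*, *Mmp12* and *Mmp14* higher with TNF, as were 13% of the tested genes, and *Mmp13* and *Timp2* lower, as were 22.8%. The other 4 were not. *Mmp8*, the neutrophil collagenase, had 5.94 and 10.0 CPM with IL4+IL13 and 11.7 and 8.08 CPM with TNF, higher in replicate 1 and lower in replicate 2, with a log2 fold change of 0.31 and an edgeR adjusted p of 0.927. *Mmp19*, a secreted protease that cleaves basement membrane proteins, had 4.14 and 8.04 CPM and then 6.83 and 7.15 CPM, a log2 fold change of 0.20 with an edgeR adjusted p of 0.962. Both changed sign, to -0.03 and -0.21, when the IL4+IL13 sample of replicate 1 was left out.

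*Timp1*, a secreted inhibitor with a weak hold on *Mmp14*, had 3.0 and 4.03 CPM with IL4+IL13 and 1.34 and 2.17 CPM with TNF. Its log2 fold change was -1.0 with an SE of 0.424 and an edgeR adjusted p of 0.652, or 0.129 with the block, and it was lower with TNF on 3 of the 4 plates. *Timp3*, which binds to the matrix and also inhibits Adam17, had 6 and 16 fragments in the kept cells without TNF, and 5 and 17 under TNF, or 0.0322 to 0.0969 CPM. At this depth a difference in *Timp3* was not detectable, and the interval of its fold ran from 0.235 to 3.83 in replicate 1 and from 0.485 to 2.16 in replicate 2.

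**Figure D3:**
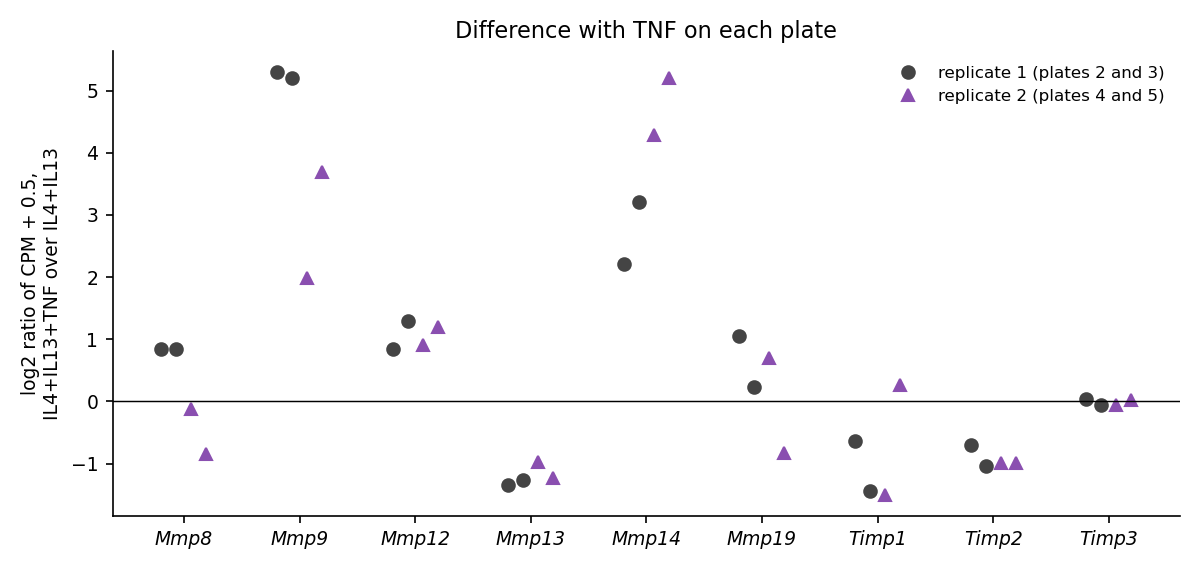
log2 ratio of CPM with 0.5 added, IL4+IL13+TNF over IL4+IL13, for each gene on each plate; circles are the plates of replicate 1 and triangles those of replicate 2, and the line marks no difference. *Mmp9*, *Mmp12* and *Mmp14* lie above the line and *Mmp13* and *Timp2* below it on every plate; *Mmp8* lies above it in replicate 1 and below it in replicate 2.

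Shares of cells were compared at an equal depth of 339000 fragments per cell, which left 1250 cells. *Timp2* was found in 98.9% ± 0.608 of cells with IL4+IL13 and in 96.6% ± 0.255 with TNF (SD, n = 2), and *Mmp12* in 86.7% ± 0.898 and 95.4% ± 1.82. *Mmp9* was found in 1.42% ± 0.734 and 13.3% ± 8.22 of cells. In replicate 1 it was in 3 of 332 cells with IL4+IL13 and in 58 of 303 with TNF, and in replicate 2 in 6 of 309 and 23 of 306. *Mmp14* was in 4.99% ± 0.188 of cells with IL4+IL13 and in 18.7% ± 10.6 with TNF, or 11.2% (7.90 to 15.3) in replicate 1 and 26.1% (21.3 to 31.5) in replicate 2. *Mmp13* went the other way, with 15.3% ± 3.85 and 8.39% ± 3.54. For these 5 genes and for *Mmp19* (10.2% ± 2.95 and 16.4% ± 1.75) the exact permutation p was 0.333, the smallest that 4 samples allow.

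A few fragments in a well can come from other wells, so the share with at least 5 fragments at equal depth was set beside this. After thinning, no cell with IL4+IL13 reached 5 fragments of *Mmp9* or *Mmp14*, 0 of 332 and 0 of 309 cells. This allows a share of up to 0.904% and 0.971% by a limit of 3 counts, and the 95% exact binomial intervals end at 1.10% and 1.19%. Thinning was drawn once. Before it, the highest IL4+IL13 cell of replicate 1 had 13.4 CPM of *Mmp9*, or 59.5% of the CPM summed over that sample's cells. With TNF, 13.9% (10.2 to 18.3) and 4.25% (2.28 to 7.15) of the cells of replicate 1 and replicate 2 had at least 5 fragments of *Mmp9* after thinning. For *Mmp14* these shares were 6.60% (4.08 to 10.0) and 16.3% (12.4 to 21). For *Mmp12* the share with at least 5 fragments was 48.8% ± 3.04 with IL4+IL13 and 69.7% ± 7.45 with TNF. *Mmp8*, at 6.09% ± 0.0884 and 7.57% ± 5.16, and *Timp1*, at 4.65% ± 1.09 and 2.96% ± 0.0205, stayed rare in both treatments. Leaving out the top 5% of cells, the level of *Mmp12* in a cell had a rank correlation of 0.10 (median of 8 sets, 0.04 to 0.15) with the fragments of *Mmp12* in the other wells of its row and column, and for the other members tested the median was 0.01 to 0.09.

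**Figure D4:**
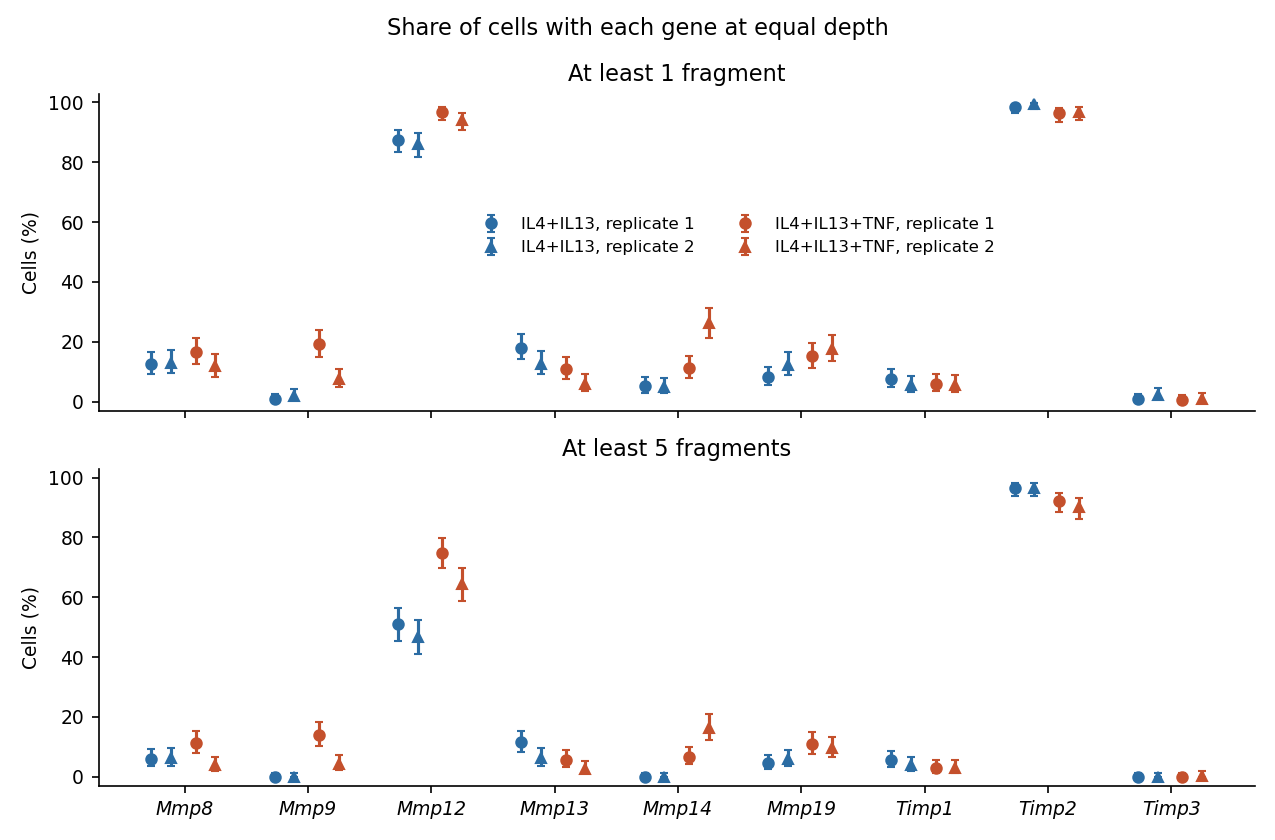
Share of cells in % with at least 1 fragment (top) and at least 5 fragments (bottom) of each gene after thinning every cell to 339000 fragments, by replicate and treatment; bars are 95% exact binomial intervals. With at least 5 fragments, *Mmp9* and *Mmp14* are at 0 in all IL4+IL13 samples and at 4.25% to 16.3% with TNF, and *Mmp12* runs from 46.6% to 74.9%.

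*Mmp8* and *Mmp9* are stored in neutrophil granules, and fibroblasts make *Mmp14* and Timps, so markers of these cells were measured. The 10 neutrophil markers summed to 1.35 and 2.71 CPM with IL4+IL13 and to 1.96 and 6.5 CPM with TNF. *Ly6g* was found in 0.580% and 0.287% of the cells of the 2 treatments, and *Ltf*, *Camp* and *Elane* in at most 0.287% of either. *S100a8* was found in 8.26% of cells with IL4+IL13 and in 20.4% with TNF, *S100a9* in 4.49% and 12.4%, and *Retnlg* in 1.01% and 4.60%. The part of these markers in the values of *Mmp8* and *Mmp9* was not tested. The 10 stromal markers summed to 2.69 to 3.88 CPM in the 4 samples. Markers of osteoclasts, macrophage-related cells rich in *Mmp9*, summed to 630 and 692 CPM with IL4+IL13 and to 925 and 810 CPM with TNF, with *Calcr* at 0.0337 or less. Most of the sum was *Atp6v0d2*, at 509 and 552 CPM and, with TNF, 783 and 660. *Dcstamp* (6.00 and 7.78, then 35.4 and 47.6 CPM) and *Acp5* (5.30 and 5.46, then 16.2 and 14.2 CPM) were also higher with TNF, and *Nfatc1* (44.4 and 63.5, then 33.4 and 27.1 CPM) and *Ctsk* (64.8 and 55.5, then 49.3 and 50.9 CPM) were lower. The osteoclast list had a median rank correlation of 0.30 (0.17 to 0.39) with *Mmp12* across cells and of -0.0035 with *Mmp9*. With IL4+IL13 a plate held only 1 to 9 fragments of *Mmp9*, so the value for *Mmp9* does not show that it is unrelated to the list. A list of 8 lymphoid markers, in which *Il7r* at 138 and 236 CPM and, with TNF, 191 and 230 CPM made nearly all of the sum, had a median of 0.31 (0.23 to 0.43) with *Mmp12*. The part of either list in the difference of *Mmp12* was not tested.

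Across single cells, the rank correlations between members were mostly small. Most members had no fragment in the majority of cells. With so many tied cells, a small correlation does not show that such members are unrelated. Correlations are Spearman's rho of CPM within each of the 8 sets of 1 plate and 1 treatment, with 160 to 183 cells in a set that share their culture and library run, and are given as descriptions. Among the 28 pairs without *Timp3*, the median rho ran from -0.21 to 0.15, and 1 pair passed 0.2 in size. That pair was *Mmp12* and *Timp2*, with a median of -0.21 (range -0.28 to -0.06), negative in all 8 sets, so within each treatment the cells with more of the main protease had less of the main inhibitor. It was -0.22 with IL4+IL13 and -0.21 with TNF, and -0.14 when the 5% of cells with the most fragments of either gene were left out. *Mmp12* was positively related in all 8 sets to *Mmp8* (0.15), *Mmp19* (0.11) and *Mmp13* (0.11), all weak, and without the 5% of cells highest in either gene these were 0.053, 0.060 and -0.0062.

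*Mmp9* and *Mmp14*, the 2 genes close to silent without TNF, were found together in more TNF-treated cells than the product of their shares gives. Most cells with either gene still lacked the other, and the difference from the product was not tested. With TNF, 81 of 609 cells had *Mmp9* and 114 had *Mmp14* at equal depth, 21 had both, and the product of the shares gives 12.5. The median rho of the pair was 0.10 over the 4 plates with TNF. Of the 81 cells with *Mmp9*, 79 also had *Mmp12* and 79 had *Timp2*, where the products give 77.7 and 78.1.

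**Figure D5:**
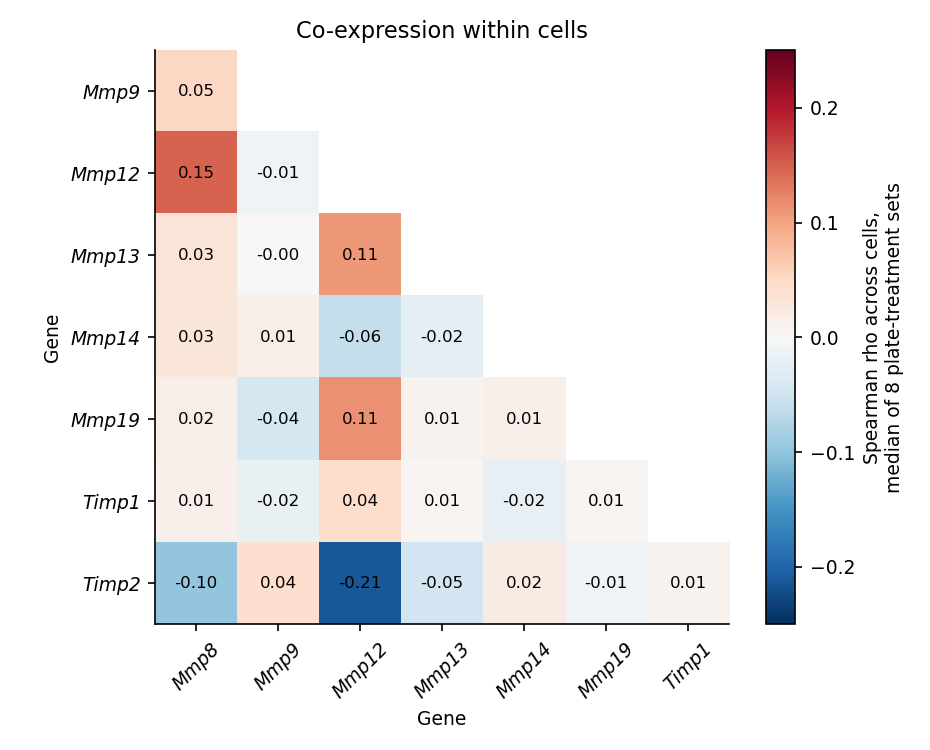
Spearman's rho of CPM across the cells of a plate and treatment, median of 8 sets, for each pair of 8 genes (*Timp3* left out), with the value in each field. The field of *Mmp12* and *Timp2* is the darkest at -0.21, and *Mmp12* has its positive fields with *Mmp8*, *Mmp13* and *Mmp19*.

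The genes whose pattern over cells was most like that of *Mmp12*, among 11031 compared, were *Anxa1*, which encodes the lipid-binding protein annexin A1 (median rho 0.46 over 8 sets, 0.26 to 0.60), *Csf2rb*, the shared receptor chain for GM-CSF, IL3 and IL5 (0.44, 0.17 to 0.55), and *Itgb2*, the beta chain of the leukocyte integrins (0.39, 0.31 to 0.49). *Csf2rb* has a near-identical copy, *Csf2rb2*, and counts of both are uncertain. Most like *Timp2* were *Mrc1*, the mannose receptor (0.41, 0.30 to 0.47), *C1qc*, a chain of complement C1q (0.33, 0.15 to 0.45), and *mt-Rnr1*, a mitochondrial ribosomal RNA (0.30, 0.25 to 0.40). *Timp2* had a median rho of -0.15 with the number of detected genes of a cell and *Mmp12* of 0.05.

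Around the members, a list of 57 further genes of matrix proteolysis was read in the same fit, of which 28 were high enough to be tested. None passed without the block, 6 had an unadjusted p under 0.05, beside 1380 of the 17034 genes, and DESeq2 called 4, beside 3.51% of all genes. With the replicate as a block, where 3.82% of all genes passed, 1 of the 28 passed as higher and 2 as lower, and the median log2 fold change of the 28 was -0.05. *Adam17*, the sheddase that releases TNF from the cell surface, was the higher one, with 131.5 and 222 CPM with IL4+IL13 and 404.5 and 421 CPM with TNF. Its log2 fold change was 1.23, with an edgeR adjusted p of 0.353, or 0.0302 with the block. *Itgb3*, the integrin beta chain that pairs with the alpha v chain, stood at 25.6 and 34.3 CPM and, with TNF, at 9.25 and 13.6 CPM, a log2 fold change of -1.39 and an edgeR adjusted p of 0.329, or 0.0187 with the block. *Tgfbi*, a secreted matrix protein that binds integrins, stood at 284 and 215 CPM and, with TNF, at 119 and 87.7 CPM, a log2 fold change of -1.27 and an edgeR adjusted p of 0.271, or 0.00882 with the block.

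By class, 2 of 17 other Mmps were tested and neither passed in the edgeR fits. *Mmp27*, the neighbour of *Mmp8*, stood at 4.48 and 9.89 CPM and, with TNF, at 2.16 and 4.80 CPM (edgeR adjusted p with the block 0.0845). *Mmp25*, a membrane-anchored protease of leukocytes, entered the test only through the TNF-treated cells (4.93% of cells with IL4+IL13 and 7.33% with TNF). It stood at 0.451 and 0.510 CPM and, with TNF, at 1.10 and 6.32 CPM, with 0.112 in that fit and 0.0086 by DESeq2. *Mmp2*, which is activated on the cell surface through *Mmp14* and *Timp2*, was not tested, at 0.811 CPM or less and in at most 3.59% of cells. Of the other inhibitors 2 of 6, of activators and binding partners 8 of 10, of the Adam and Adamts proteases 6 of 10 and of matrix substrates 10 of 14 were tested. The 3 genes named above were the ones that passed in the fit with the block, *Adam17* among the proteases, *Itgb3* among the partners and *Tgfbi* among the substrates.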

How the data were processed

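The authors deposited counts of fragments per Ensembl 98 gene and well, aligned to mm10 with gsnap and counted with featureCounts 1.6.3 without strand, unnormalized and with no well removed. The labels gave treatment, replicate number, plate and well. Wells more than 3 median absolute deviations from their plate's median (low fragments or genes, high mitochondrial or spike-in share) were left out, as were 8 columns matching no label; no doublet caller was run on singly sorted cells. The summed counts of a replicate and treatment entered edgeR 4.0.16 (quasi-likelihood, TMM, Benjamini-Hochberg, 0.05) over 17034 genes detected in 5% of cells or more under a treatment. Alternatives were a replicate block, DESeq2 1.42.0, limma 3.58.1 on CPM with 1 added, other scalings and filters, and each sample left out; the fit was tested on simulated data. The replicate numbers pair the samples, since same-numbered samples of both treatments share plates in the labels. Over the 17034 tested genes, the deviations of same-numbered samples from their treatment means correlated with r = 0.562. The members and lists were chosen with earlier results of these data known. Named genes are the members, listed genes past the threshold with or without the block, and the 3 genes most like each member found in 25% of cells. Scripts used Python 3.11.15 with scipy 1.17.1. Each treatment has 2 replicates, not stated to be separate animals, with 161714903 to 179190888 fragments of tested genes per sum.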

Additional observations from a re-analysis of the deposited data

Results flagged for a closer look

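*Mmp8* was higher with TNF on both plates of replicate 1 (log2 ratio 0.84 and 0.85) and lower on both plates of replicate 2 (-0.12 and -0.84), so every plate of a replicate lay on the side opposite to those of the other replicate. The difference between the replicates was not tested.

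Data outside the comparisons also held members above the 3 counts that a count of 0 allows. In 3 wells labelled with IL4 and IL13 but with no number, *Mmp12* had 348, 93 and 207 fragments, *Timp2* 117, 112 and 35, and *Mmp8* 14 and 8 in the first and the second well. *Mmp14* had 8 and 9 fragments in the first and the second well, and *Mmp13* had 4 in the third. For comparison, all kept IL4+IL13 cells together held 18 fragments of *Mmp14* in replicate 1 and 36 in replicate 2. The wells held 279461, 354874 and 87198 fragments of 10802, 11121 and 8314 genes. The median kept cell with IL4+IL13 had 7874 genes in replicate 1 and 7431 in replicate 2. Whether each of these wells held 1 cell was not examined.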

How the results depend on the processing

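With the replicate as a replicate block, 4 members passed, with log2 fold changes of 7.36 (*Mmp9*), 1.14 (*Mmp12*), 6.00 (*Mmp14*) and -0.85 (*Timp2*), and 1 other matrix gene passed as higher and 2 as lower. The block changed no other call of a member. DESeq2 passed 4 members, at 7.70 (*Mmp9*), 1.13 (*Mmp12*), 6.25 (*Mmp14*) and -1.24 (*Mmp13*), and 2 other matrix genes in each direction. Spike-in scaling with the block, chosen after seeing the data, passed 5 members, at 7.52 (*Mmp9*), 1.30 (*Mmp12*), 6.17 (*Mmp14*), -1.07 (*Mmp13*) and -0.68 (*Timp2*), and 5 other genes as higher and 3 as lower; it moved the median of all genes to 0.18 (0.15 without the block) and turned no member's direction. Leaving out 1 sample at a time gave 0 to 2 members, and log2 fold changes of 6.14 to 8.42 for *Mmp9*, 4.69 to 6.99 for *Mmp14*, -0.026 to 0.74 for *Mmp8* and -0.21 to 0.76 for *Mmp19*. On the mean of log2 CPM per cell, *Mmp9* differed by 0.64 and *Mmp14* by 0.76. Library size, spike-in scaling without the block, no gene filter, mean CPM per cell and other cell filters passed no member. The difference in the share of cells, in percentage points, moved without thinning to 4.15 (*Mmp12*), -2.19 (*Timp1*) and -2.02 (*Timp2*), with thinning to 200000 fragments to 10.7 (*Mmp12*) and -4.90 (*Mmp13*), and at 5 fragments to 20.9 (*Mmp12*), -4.69 (*Mmp13*), -5.28 (*Timp2*) and 0.163 (*Timp3*). For *Mmp13* it was -7.70 with the fixed cell filter and -7.83 with none. Of 63 alternatives for the shares, 4 had the other sign, 1 of them that of *Timp3* at 5 fragments. The difference for *Mmp8* turned from 1.335 to -0.155 without thinning and to -1.18 without replicate 1. For *Timp1* it turned from -0.7675 to 0.054 without replicate 1. Without the 5% of cells highest in either gene, the median rho became -0.14 (*Mmp12* and *Timp2*), 0.053 (*Mmp8* and *Mmp12*), -0.00622 (*Mmp8* and *Timp2*), 0.10 (*Mmp9* and *Mmp14*), -0.00624 (*Mmp12* and *Mmp13*) and 0.11 (*Mmp19* and *Timp1*). The causes of these shifts were not tested. All alternatives for the plates gave 5 members on 1 side. Depth limits *Timp3*, and *Mmp9* and *Mmp14* with IL4+IL13.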

Other observations

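The stretch of chromosome 9 that holds *Mmp13*, *Mmp12* and *Mmp8* carries further Mmp genes, and most of them were close to silent in these macrophages. *Mmp1b*, *Mmp3*, *Mmp1a* and *Mmp7*, a collagenase and its relatives, stromelysin and matrilysin, were found in 2, 5, 3 and 3 of the kept cells, *Mmp20* in 6 and *Mmp10* in 15. *Mmp8* was found in 210, *Mmp13* in 173 and *Mmp27* in 126 cells, and *Mmp12*, which lies between *Mmp13* and *Mmp1b*, in 1308.

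Pairs of rare members were counted in the same cells. At equal depth, *Mmp8* and *Mmp13* were found together in 16 of 641 cells with IL4+IL13 and in 8 of 609 with TNF, where the products of their shares give 12.7 and 7.78. *Mmp14* and *Mmp19* were found together in 3 and 23 cells, where the products give 3.13 and 19.4. *Mmp8* and *Timp1* were found together in 11 of 641 cells with IL4+IL13 and in 5 of 609 with TNF. Their products give 5.83 and 4.945. *Mmp19* and *Timp1* were found together in 5 and 11 cells, where the products give 3.889 and 5.72. The pairs named here are some of all pairs counted, and the differences from the products were not tested.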
